A study of Sesbania grandiflora with 21 samples.

Results

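Among the 97500 assembled genes of Sesbania grandiflora leaves, 61 stood higher than the group labelled ck in both groups labelled Y and did not in either group labelled DS. A gene was taken when its mean of log2(CPM + 1), minus the same mean in ck, was 0.7 or more in each of the Y groups and under 0.3 in each of the DS groups. CPM is the count of a gene divided by the total count of its library and scaled to 1000000 counts, and this difference from ck is called d below. A group mean of 5 CPM or more in any group was also required, which 18177 genes reached and which serve as the background here. The limit of 150 genes was not reached. Because these values chose the 61 members, d in the Y and DS groups is a description and carries no test.

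Sesbania grandiflora is a fast-growing legume tree whose leaves are eaten and used as fodder. The study names combined drought and salt stress, and its 21 leaf libraries of messenger RNA fall into 7 groups of 3. One is ck, and the others are labelled DS, Y or DS+Y, each with a suffix L or S. The labels give no expansion of these letters, no duration, dose, age or growth condition, and do not say which letters stand for which stress. Nothing in the labels tells whether the 3 libraries of a group were 3 plants, so each p-value reflects library-to-library spread that may be only technical. Total counts ran from 16431940 to 20138058 per library. DS+Y-S replicate 1 had counts on 36755 genes, against 47279 to 61454 in the other 20 libraries, and was left out of the rule and of the fit, so that DS+Y-S rests on replicates 2 and 3.

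Plants that run short of water close their stomata and build up the hormone abscisic acid, which switches on genes for protective proteins and osmolytes. Excess salt causes the same water shortage at first and later adds sodium that leaf cells must export or store in the vacuole. The files pair no gene name or description with any of the 61 identifiers, so no member can be given a function here, the leaf origin could not be checked against marker genes, and only 4 identifiers are printed.

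The members spanned a wide range of abundance. Their means over the 20 libraries ran from 1.95 to 630.0 CPM with a median of 22.0 CPM, close to the background median of 21.4 CPM. On the per-length scale the authors deposited, their ck means had a median of 17.3 FPKM, against 17.7 FPKM for the background, with 453.7 FPKM the highest. The transcript length implied by counts and FPKM had a median of 800 bases in the members and 1222 bases in the background. Only 2 members shared an assembly cluster with another member and could be copies of one locus that divide reads between them. Clusters shared with genes outside the set were not counted. Counts were above 0 in all 20 libraries for 54 members, and the other 7 were at 0 in at least 1 library, up to 8 libraries for one member.

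In the groups that chose them, the members had a median d of 1.41 in Y-L and 0.89 in Y-S, against -0.52 in DS-L and 0.02 in DS-S. Over the background the 4 medians were -0.03, 0.09, -0.01 and 0.07 in the same order. In 49 of the 61, d was larger in Y-L than in Y-S. In DS-L 26 members had d of -0.7 or less (10.0% of the background) and 7 had it in DS-S (5.58%). The rule capped d in DS, so nothing is read from these counts. They also depend on ck replicate 3, which was high in most members (below). Measured against ck replicates 1 and 2 only, the medians over members in DS-L replicates 1, 2 and 3 were 0.13, -0.01 and 0.22. At the edges of the rule the last member inside had a smaller Y difference of 0.701 and the first gene outside 0.693. The largest DS difference inside was 0.298 and the nearest outside 0.303, and a further 42 genes met the DS limit with a smaller Y difference between 0.6 and 0.7.

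Libraries of the same group differed widely in these genes. The median over the 61 members, taken library by library against the ck mean, was -0.95 in ck replicate 1 and -0.65 in ck replicate 2 but 1.57 in ck replicate 3. In the Y-L replicates it was 1.60, 0.54 and 1.74, and in the Y-S replicates 0.26, 0.94 and 1.79. The ck replicate 3 library therefore lay among the Y libraries for these genes, and was at place 5 of the 20 libraries. Whether its label is right cannot be told from the files, and every d against ck includes it. Replicate 3 of DS+Y-S, Y-S and Y-L held places 1, 2 and 3, and replicate 3 of DS+Y-L, DS-S and DS-L held places 7, 13 and 17. The part of the replicate number in these levels was not tested. The 3 DS-L libraries lay between -0.77 and -0.39 and the 3 DS-S libraries between -0.29 and 0.11, so these 6 were all below every Y library. Members took 0.660% of all counts in ck replicate 3, against 0.109% and 0.129% in the other ck libraries and 0.250% to 0.905% in the Y libraries.

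**Figure D1:**
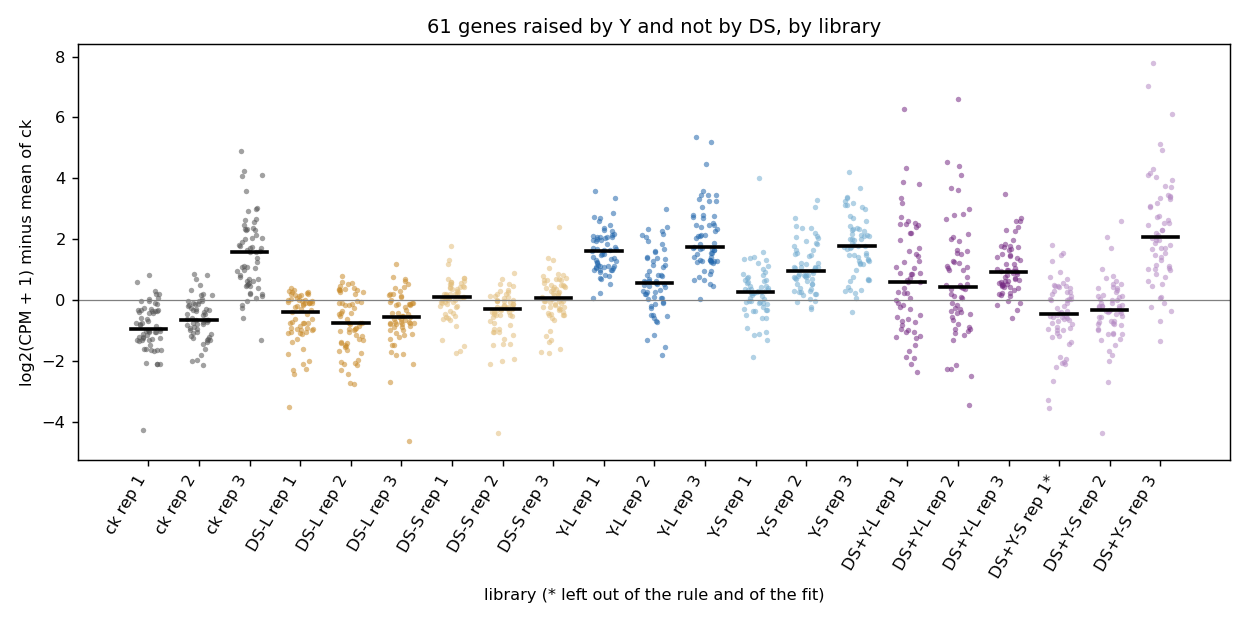
Each point is 1 of the 61 members in 1 library, as log2(CPM + 1) minus the mean of the 3 ck libraries, and black bars are the medians over members. The medians of ck replicates 1 and 2 sit at -0.95 and -0.65, while ck replicate 3 sits at 1.57, inside the span of the Y libraries from 0.26 to 1.79.

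The high level in ck replicate 3 was shared by most members. It was the highest ck library in 53 of the 61 members (36.1% of the background), and at least 1 log2 unit above both other ck libraries in 40 (6.50% of the background). It lay above the lowest Y library in 54 members, above the median of the 6 Y libraries in 37, and above all 6 in 8. All 6 Y libraries were above ck replicates 1 and 2 in 39 members (10.9% of the background) but above all 3 ck libraries in 3 (3.16% of the background). Taken group by group against the 3 ck libraries, Y-L lay wholly above in 12 members (12.9% of the background) and Y-S in 6 (7.44%), and since the rule used these contrasts nothing is read from the counts. The ck libraries had total counts of 18450395, 19002636 and 18403292 and counts on 54120, 60733 and 61117 genes, in the order of replicates 1 to 3, and the part of depth or of tissue make-up in its level was not tested. Fewer cells of a type and less RNA per cell cannot be told apart in such bulk leaf libraries.

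Members varied together across libraries. Over the 20 libraries the median Pearson correlation between 2 members was 0.58 across 1830 pairs, 59.4% of pairs were above 0.5 and 5.74% were below 0. These members share libraries and were chosen on their group means, so the correlation is a description only. Within groups the median standard deviation of a member on the log2 scale reached 1.38 in ck, 1.79 in DS+Y-S and 1.07 in Y-S, and was 0.87 in Y-L and 0.85 in DS+Y-L, against 0.37 to 0.47 for the background in these groups. In DS-L and DS-S the members were less variable, at 0.41 and 0.52. The median standard error of d was 0.94 in Y-L and 1.10 in Y-S, so that the threshold of 0.7 lay within 1 standard error for the typical member.

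The set depended on single libraries. With the rule applied again without ck replicate 3, 64 genes met it but only 11 were among the 61, which is 18.03% of the members and 17.2% of the new list. Without ck replicate 1 it kept 17 members of 38 genes, and without ck replicate 2 it kept 21 of 52. Leaving out Y-S replicate 3 kept 28 of 36. Leaving out any other single Y or DS library kept between 41 and 61 members, although the whole list grew to 171 genes without Y-S replicate 1, 99 without DS-S replicate 3 and 98 without Y-S replicate 2. Of the 61, 0 met the rule in every one of these 15 repeats, as each lost it in at least 1.

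**Figure D2:**
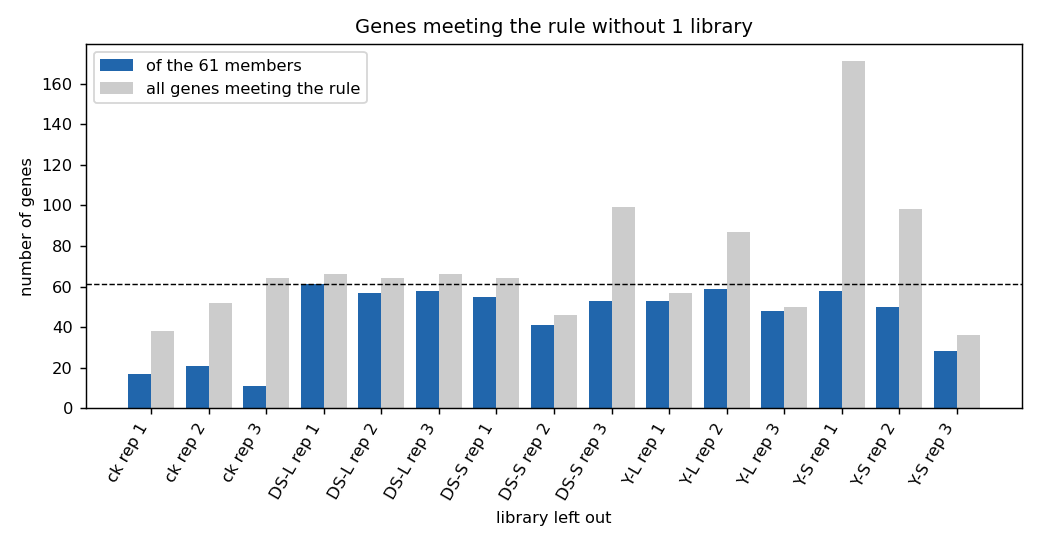
Blue bars count the members that still met the rule when 1 library was left out, grey bars count all genes that met it, and the dashed line marks 61. The lowest blue bars belong to the 3 ck libraries at 17, 21 and 11 and to Y-S replicate 3 at 28.

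Under the combined label the median d of the members was above 0 at both suffixes. The spread of d between members was wider at L, and the spread between libraries was wider at S. At S the library medians were -0.34 and 2.05 in replicates 2 and 3, so the rise there came from replicate 3. These differences share the ck libraries with the rule and so are not independent of it. In DS+Y-L the median d was 0.68 (0.01 in the background), with quartiles of -0.10 and 1.57 and extremes of -1.59 and 4.32. Of the 61, 30 had d of 0.7 or more (17.6% of the background), 8 lay between the limits and 23 were under 0.3 (66.7% of the background). In DS+Y-S the median was 0.92 (-0.08 in the background), with quartiles of 0.67 and 1.32. There 43 members were at 0.7 or more (13.9%), 11 between and 7 under 0.3 (74.1%). At 0.7 or more in both combined groups were 25 members (10.0% of the background), 13 reached it in DS+Y-S while under 0.3 in DS+Y-L, and 6 were under 0.3 in both.

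Library by library, the 2 combined groups were built differently. The medians over members were 0.60, 0.42 and 0.92 in DS+Y-L replicates 1, 2 and 3. All 3 were above ck replicates 1 and 2 and below ck replicate 3. In DS+Y-S, replicate 2 had a median of -0.34 and replicate 3 of 2.05, the highest of the 20 libraries. Replicate 2 was at place 15 of the 20, so the mean of DS+Y-S lies far from both of its libraries. Replicate 3 was above replicate 2 by at least 1 log2 unit in 45 members (9.75% of the background), with a median gap of 2.49 against -0.13 in the background. It was the highest of all libraries for 23 members and gave them 1.48% of its counts, against 0.155% in replicate 2. DS+Y-S replicate 1, the library with few genes, had a median of -0.47, near replicate 2, and 22 members above the ck mean against 20 in replicate 2 and 56 in replicate 3. With replicate 1 included, the count at 0.7 or more dropped from 43 to 18 and the count under 0.3 went from 7 to 20.

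**Figure D3:**
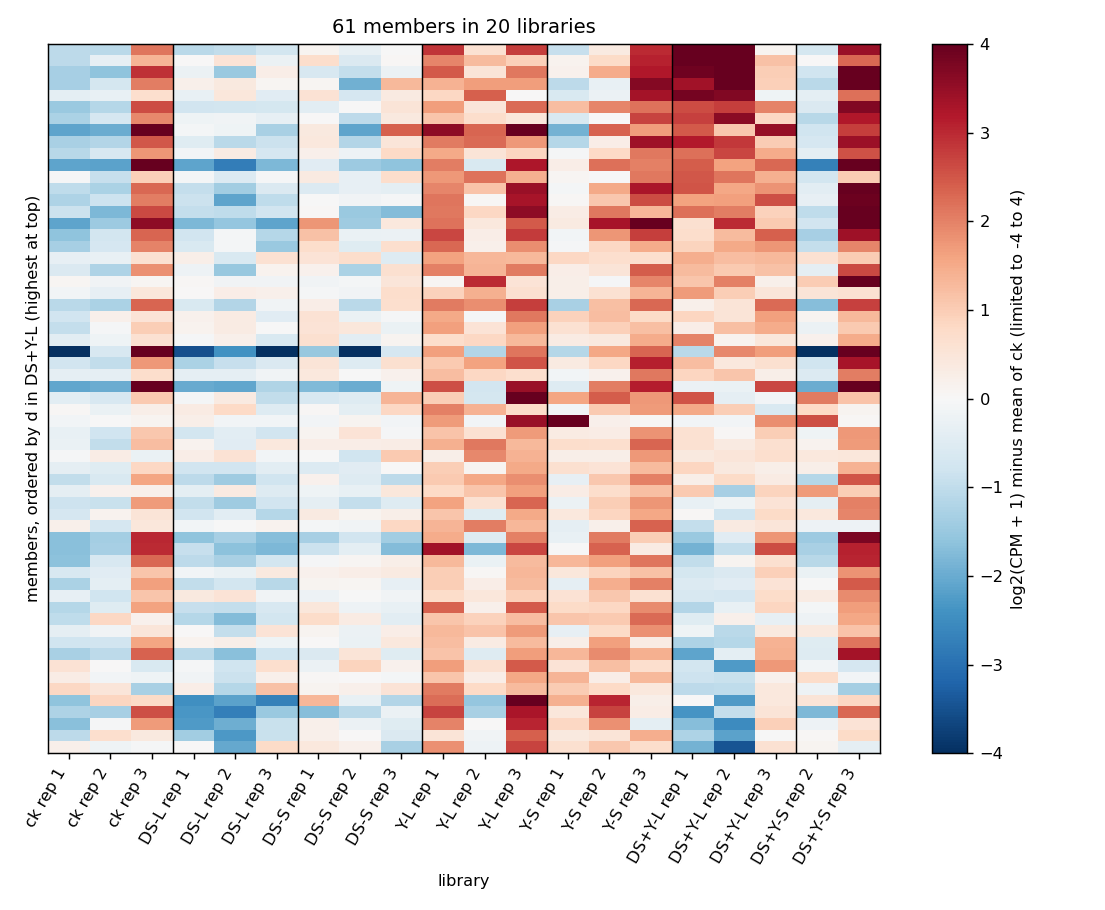
Each row is a member and each column 1 of the 20 libraries, coloured by log2(CPM + 1) minus the ck mean, with rows ordered by d in DS+Y-L. Replicate 3 of ck and of DS+Y-S stands out from its group, with medians of 1.57 and 2.05. Medians in Y-L replicates 1 and 3 (1.60 and 1.74) and Y-S replicate 3 (1.79) lay between these 2 values. The lower rows are blue in DS+Y-L replicates 1 and 2 but not in replicate 3.

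DS+Y-L also held 2 kinds of library. Among the 23 members under 0.3, the median was -0.97 in replicate 1, -0.90 in replicate 2 and 0.63 in replicate 3. Replicates 1 and 2 were both under the ck mean in 17 of the 23, while replicate 3 was above it in 21. Among the 30 members at 0.7 or more the medians were 1.84, 1.63 and 1.24, so here replicate 3 was the lowest. Replicate 3 was thus the more even library, and replicates 1 and 2 held both the highest and the lowest members. Since the 2 classes were cut from the mean of these libraries, the split is a description.

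No member passed edgeR's test against ck. edgeR's quasi-likelihood test with Benjamini-Hochberg adjustment over 41105 genes, of which all 61 members were part, called 0 members in DS+Y-L against ck (0.0876% of all genes were called higher and 0.0219% lower). The smallest adjusted p among members was 0.0797. Shares of all genes, here and below, are over the genes a test adjusted. These needed no group mean of 5 CPM, so they include genes that fell short of the minimum of the background. At an unadjusted p under 0.05, 13 members were higher (10.7% of all genes) and 0 lower (10.0%). The 13 became 5 without ck replicate 1, 5 without ck replicate 2 and 28 without ck replicate 3. Without DS+Y-L replicates 1, 2 and 3 in turn they became 7, 9 and 12, with 3 lower in the last. The share of all genes at unadjusted p was not taken in these refits, so nothing particular to the members is read from them. For DS+Y-S against ck it called 0 (0.00243% of genes higher), with 8 higher at an unadjusted p under 0.05 (6.39% of all genes) and 0 lower (2.66%). The 8 became 43 without ck replicate 3 and 4 without ck replicate 1 or 2, again with no share of all genes to set beside them. Without DS+Y-S replicate 3 the median log2 fold change turned from 1.33 to -0.67, and without replicate 2 it was 1.91. DESeq2 called 5 members in DS+Y-L, under the 9.73% of all genes that it called there, and 1 in DS+Y-S (1.54% of all genes), all higher. In DS+Y-L all 3 libraries were above all 3 ck libraries in 5 members, which is under the 14.5% of the background, and in DS+Y-S both were in 5 (12.2% of the background). Without ck replicate 3 these counts became 36 (24.2% of the background) and 34 (22.0%). Leaving out a ck library can only raise such counts, and replicate 3 was the highest of ck in 53 members. Nothing is therefore read from the rise.

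The combined groups were next set against Y alone. At suffix L the members stood lower in the combined group, with a median difference of -0.75 on the log2(CPM + 1) scale (0.00 in the background) and 13 of 61 above 0. All 3 DS+Y-L libraries were below all 3 Y-L libraries in 9 members (7.74% of the background) and above in 0 (8.55%). edgeR called 0 members and 0 genes in all. At an unadjusted p under 0.05, 11 members were lower (5.78% of all genes) and 2 higher (6.89%), and DESeq2 called 3 members, all lower (2.26% of all genes in either direction). At suffix S the median difference was -0.08 (-0.16 in the background), edgeR called 0 members, 1 was higher at an unadjusted p under 0.05 (3.35% of all genes) and 0 lower (1.03%), and DESeq2 called 0 members (0.142% of all genes). Both DS+Y-S libraries were below all Y-S libraries in 3 members (12.5% of the background) and above in 0 (4.99%). The rule picked genes that were high in Y, which by itself places other groups lower.

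They were then set against DS alone. DS+Y-L was above DS-L by a median of 1.17 (-0.03 in the background), was higher in 52 of 61 members, and had all libraries above those of DS-L in 33 (9.94% of the background). DS+Y-S was above DS-S by a median of 0.88 (-0.16 in the background), higher in 57 members, with 7 not overlapping (5.22% of the background) and 2 wholly lower (17.4%). edgeR called 0 members in both contrasts and 0 genes in all. At an unadjusted p under 0.05, 29 members were higher in DS+Y-L (7.37% of all genes) and 0 lower (5.86%). In DS+Y-S 25 were higher (4.44%) and 0 lower (1.39%). DESeq2 called 10 members in DS+Y-L (2.41% of all genes) and 3 in DS+Y-S (0.466%). Without DS+Y-S replicate 3 the median log2 fold change of DS+Y-S against DS-S turned from 1.72 to -0.32, and without replicate 2 it was 2.33. The rule required low DS values, so these contrasts lean upward by the choice of members.

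The contrast of the 2 combined groups with each other shares no library with the differences that chose the members. It is not wholly free of the choice, since the minimum of 5 CPM could be met in a combined group. A member with group means of 3.01 CPM in Y-L and 1.82 CPM in DS+Y-L met it only in DS+Y-S, at 9.66 CPM. The median difference, DS+Y-L minus DS+Y-S, was -0.26 (0.04 in the background), with 27 members above 0. In 2 members DS+Y-L lay wholly above DS+Y-S (9.90% of the background) and in 2 wholly below (5.58%). edgeR called 0 members and 0 genes. At an unadjusted p under 0.05, 1 member was higher (2.70% of all genes) and 7 lower (3.62%), and DESeq2 called 0 members (0.459% of all genes). The fitted median log2 fold change of -0.71 turned with a single library, to 1.15 without DS+Y-S replicate 3 and -1.29 without replicate 2.

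The same fit asked, at each suffix, whether DS+Y differed from DS and Y added together on the log2 scale. This difference is built from the ck, Y and DS libraries that chose the members, so nothing is read from its counts. edgeR called 0 members at L and 0 at S, with 0 genes called in all. At an unadjusted p under 0.05, 5 members were above the sum at L (4.52% of all genes) and 3 below (3.89%), and 6 were above it at S (2.36%) and 0 below (1.96%). DESeq2 called 0 members at both (0.312% of all genes at L and 0.165% at S).

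**Figure D4:**
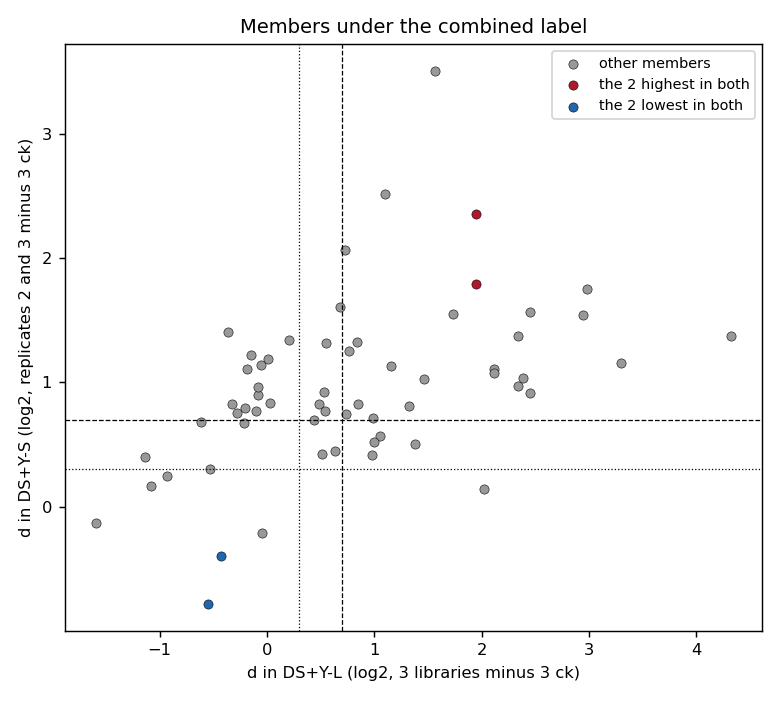
Each point is a member, with d in DS+Y-L on the horizontal and d in DS+Y-S on the vertical axis (log2), and lines mark 0.7 (dashed) and 0.3 (dotted). The upper right holds the 25 members at 0.7 or more in both groups, and a column of 13 members reaches 0.7 in DS+Y-S but stays under 0.3 in DS+Y-L.

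The 2 members that stood highest in both combined groups shared the pattern of the whole set. TRINITY_DN34068_c0_g1 had 17.6, 14.5 and 181 CPM in ck, 144, 81.4 and 412 in Y-L, and 34.6, 106 and 357 in Y-S. It had 214, 108 and 128 CPM in DS+Y-L and 27.0 and 1319 in DS+Y-S replicates 2 and 3. In DS-L and DS-S its 6 libraries lay between 13.2 and 29.1 CPM, so they overlapped ck replicates 1 and 2 and none reached a Y library. Set against ck, DS+Y-L was higher by 1.26 in the fit's log2 fold change (SE 1.09, edgeR adjusted p = 0.545) and DS+Y-S gave 3.47 (SE 1.24, edgeR adjusted p = 0.38). The second value rests on replicate 3, without which it was -1.27.

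TRINITY_DN60946_c0_g2 was of lower abundance, at 3.90, 5.47 and 46.3 CPM in ck. Its Y-L libraries held 49.3, 10.9 and 112 CPM and its Y-S libraries 10.8, 23.0 and 68.5. In DS+Y-L it had 33.99, 34.8 and 67.8 CPM, all above ck replicates 1 and 2, and in DS+Y-S 8.04 and 173 CPM. The 3 DS-L libraries, from 1.64 to 5.28 CPM, lay below all libraries of Y and of DS+Y. The DS-S libraries, at 10.4, 9.28 and 10.1 CPM, lay above DS+Y-S replicate 2 and just below the lowest Y-L and Y-S libraries. Set against ck, its fold change on the log2 scale came to 1.41 (SE 1.02, edgeR adjusted p = 0.456) in DS+Y-L and 2.52 (SE 1.12, edgeR adjusted p = 0.523) in DS+Y-S, the latter -1.07 without replicate 3. Against DS-L, where the rule required a low d, the log2 fold change of DS+Y-L was 3.51 (SE 1.11, edgeR adjusted p = 0.224).

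The 2 members that stood lowest in both combined groups had no high value in ck replicate 3. TRINITY_DN5935_c0_g2 had 62.6, 42.0 and 26.8 CPM in ck, 135, 63.1 and 233 in Y-L, and 61.2, 96.1 and 65.9 in Y-S. Its Y-L libraries were above all ck libraries, and the lowest Y-S library was just below ck replicate 1. In DS+Y-L it had 24.4, 7.84 and 139 CPM and in DS+Y-S 38.2 and 25.5, so replicate 3 of DS+Y-L stood alone among the 5. Its log2 fold change in DS+Y-L against ck was 0.31 (SE 0.72, edgeR adjusted p = 0.85) although d was -0.42. The fit compares mean levels, here 57.1 against 43.8 CPM, and d compares means of logs, and without DS+Y-L replicate 3 the fold change was -1.27. In DS+Y-S against ck it was -0.43 (SE 0.82, edgeR adjusted p = 0.909).

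TRINITY_DN3224_c0_g2 was a weakly expressed member, at 4.28, 3.21 and 0.217 CPM in ck. It held 11.5, 4.19 and 6.20 CPM in Y-L and 5.08, 4.22 and 3.06 in Y-S. Under the combined label it had 0.455, 0.477 and 3.06 CPM in DS+Y-L and 1.61 and 0.167 in DS+Y-S, all below the lowest Y-L library. Its ck mean was pulled down by replicate 3, the reverse of most members. Against Y-L the log2 fold change of DS+Y-L was -2.54 (SE 1.02, edgeR adjusted p = 0.336), and against ck it was -1.02 (SE 0.99, edgeR adjusted p = 0.598).

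**Figure D5:**
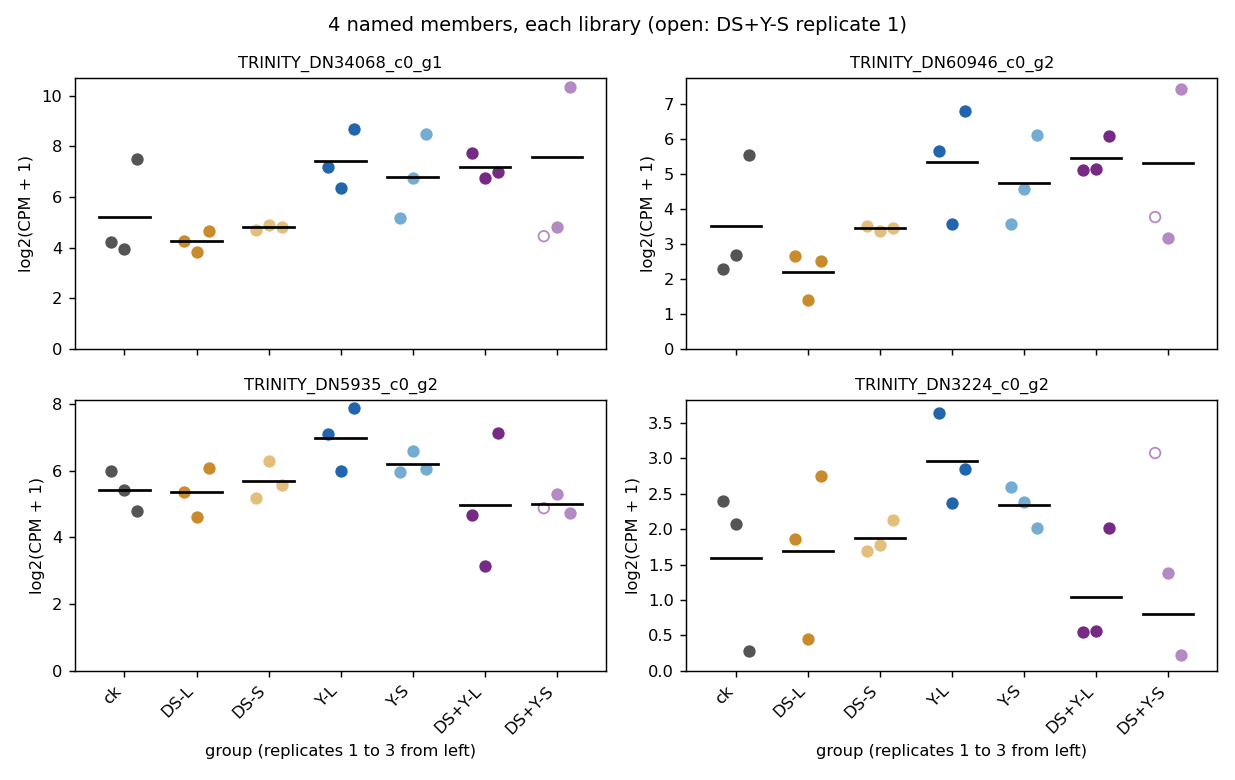
Each panel shows 1 named member as log2(CPM + 1) in every library, replicates from left to right, with black bars for group means and an open circle for DS+Y-S replicate 1. The upper pair is high in ck replicate 3 and in DS+Y-S replicate 3, and the lower pair is not.

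Members ranked by the smaller of their Y differences showed how far single libraries carried the top of the list. The first had 19.2, 5.31 and 377 CPM in Y-L against 6.67, 5.63 and 20.4 in ck, and its Y-S libraries held 29.6, 54.3 and 33.4. Its Y-S libraries were all above ck, as were both DS+Y-S libraries at 42.1 and 21.7 CPM, while Y-L and DS+Y-L overlapped ck. The second had 0, 0.579 and 51.1 CPM in ck and 1.55 and 962 CPM in DS+Y-S, with Y-L at 18.7, 4.84 and 22.8. All its Y-L libraries were thus below ck replicate 3. The third had 0.705, 0.421 and 31.9 CPM in ck and 62.4, 72.6 and 7.48 in DS+Y-L, and 83.4 CPM in DS+Y-S replicate 3. Replicates 1 and 2 of DS+Y-L and replicate 3 of DS+Y-S were above all its other libraries. The fifth had 30.2, 1.24 and 144 CPM in Y-L and 5.58, 0.371 and 7.76 in DS+Y-L, which overlapped its ck libraries from 1.14 to 10.8.

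Of the 5 most abundant members, all but the fourth were highest in replicate 3 among the ck libraries. The first by mean CPM had 129.5, 205 and 1305 CPM in ck, 1605, 373 and 1174 in Y-L and 605, 926 and 1102 in DS+Y-L, and its ck replicate 3 exceeded every DS+Y-L library. The second had 137, 218 and 938 CPM in ck and 1565, 351 and 1671 in Y-L, but 134, 249 and 556 in DS+Y-L, where it overlapped ck. The third had 0.813, 21.2 and 1040 CPM in ck and 0.689 and 4494 CPM in the 2 DS+Y-S libraries, the widest gap among the 5 most abundant. The fourth was the member with the lowest d in DS+Y-L, with 208, 161 and 176 CPM in ck, 642, 156 and 1192 in Y-L, and 47.6, 15.4 and 275 in DS+Y-L. For this gene the ck libraries were close together, and DS+Y-L replicates 1 and 2 were below all of them. The fifth had 16.3, 25.3 and 177 CPM in ck and 440, 1009 and 81.9 in DS+Y-L, with DS+Y-L replicate 3 below ck replicate 3.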

How the data were processed

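The authors deposited 1 table with a whole-number count and an FPKM value per assembled gene and library, per the file headers. The sources used here name no counting program, assembly, filter or annotation. Samples were grouped by their titles. From the deposited counts, CPM was computed with the column sum, and members were taken by the thresholds above. The deposited FPKM values gave levels per length and, where a library held at least 50 counts, the implied length. The test on counts of 20 libraries ran in R 4.3.3 with edgeR 4.0.16 (filterByExpr by group, TMM, glmQLFit and glmQLFTest, 7 groups sharing 1 spread), with adjustment over all 41105 genes and calls at 0.05. The fit gave 0.326 as common dispersion (coefficient of variation 0.571). Standard errors were derived from the F statistic. DESeq2 1.42.0 was an alternative. The code was run on simulated counts. Those for the rule varied far less between libraries than the data, so they say nothing about how stable the list is. Libraries of a group differed by far more than sampling noise (chi-square per degree of freedom from 30.6 to 181). Named members are the 2 with the largest smaller d of DS+Y-L and DS+Y-S and the 2 with the lowest larger d; others are described by rank. Members, lists and tests were chosen with earlier results of these data known, and leaving out DS+Y-S replicate 1 follows the rule. Alternatives were other scalings, pseudocounts and filters, all 21 libraries, the replicate number as a block, and leaving out single libraries; FPKM in place of CPM, and the alternatives for counts of non-overlapping members and for the named genes, were added after seeing the data.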

Additional observations from a re-analysis of the deposited data

Results flagged for a closer look

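DS+Y-S replicate 1 was left out of the rule and of the main tests and entered only alternatives and descriptions. The member of rank 5 in its smaller Y difference stood at 21.8 CPM in it, above its 3 ck libraries, which reached 10.8 CPM. TRINITY_DN3224_c0_g2 stood at 7.44 CPM in it, above 4.28 CPM, its highest ck value and also above both other DS+Y-S libraries. This library had counts on the fewest genes, and the part of that in these 2 values was not tested.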

How the results depend on the processing

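Without a low-count filter edgeR called 18 members for DS+Y-L and 23 for DS+Y-S against ck, 21 and 9 against Y, 33 and 33 against DS, 13 between the combined groups, and 14 and 13 for the departure at L and S. Of all 92756 genes it then called 5.65% and 2.27% against ck, 2.66% and 1.03% against Y, 2787 genes and 1.44% against DS, 1.29% between the combined groups, and 1.27% and 0.991% for the departure. DESeq2 called 5, 1, 3, 10 and 3 for DS+Y-L and DS+Y-S against ck, DS+Y-L against Y-L, and DS+Y-L and DS+Y-S against DS, and 0 elsewhere. The cause was not tested. DESeq2 size factors, all 21 libraries and fits to the libraries compared called 0 in each contrast they covered. The replicate block also called 0 in each. Over all groups 19 of 57 same-number pairs correlated above 0.1 (r from -0.47 to 0.62), and 4 of 20 libraries correlated best with their own number. Between ck, DS-S, Y-S and DS+Y-S, however, r was 0.26 to 0.62 for replicate 3 and 0.11 to 0.43 for replicate 2. For replicate 1, without DS+Y-S, it was 0.01 to 0.15. A pairing by number in part of the groups was not tested further. With the block the median log2 fold change of DS+Y-S against Y-S went from 0.45 to -0.007. Against ck it went from 0.47 to 1.08 in DS+Y-L and from 1.33 to 1.17 in DS+Y-S. DS+Y-S against DS-S went from 1.72 to 1.33, and DS+Y-L against DS+Y-S from -0.71 to -0.24. The departure went from 0.47 to 0.01 at L and from 0.81 to -0.04 at S. DS+Y-L moved less against Y-L (-0.85 to -0.80) and DS-L (1.79 to 1.86).

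Leaving out 1 library gave 0 to 3 calls for DS+Y-L against ck, 0 to 3 against Y-L and 0 to 2 against DS-L, each highest without DS+Y-L replicate 3, and 0 in the other contrasts. Without that library 7.75%, 2.30% and 2.61% of all genes were called in these contrasts, against 4.92%, 4.92% and 3.28% of the members. A DS+Y-S group of 1 library was assumed to vary like the other groups. The member count ran from 36 to 171, and 11 to 61 of the 61 still met the rule. In DS+Y-L the median d ran from 0.37 to 1.21, members at 0.7 or more from 20 to 41, under 0.3 from 11 to 29, and not overlapping from 5 to 36. In DS+Y-S these ran from -0.34 to 2.05, 6 to 52, 6 to 48 and 5 to 49, and -0.34, the reversed median, came without replicate 3. With DS+Y-S replicate 1 included, 18 were at 0.7 or more, 20 under 0.3 and 1 not overlapping. With FPKM in place of CPM, 3 did not overlap in DS+Y-L. TMM scaling gave 71 genes meeting the rule, pseudocounts of 0.5 and 2 gave 71 and 54, and the 1 CPM minimum gave 68. Of the 61 members, 56, 56, 41 and 61 still met it, in the same order. With TMM scaling and these pseudocounts the median d was 0.54 to 0.77 in DS+Y-L and 0.81 to 1.04 in DS+Y-S. Members at 0.7 or more were then 27 to 32 and 40 to 46.

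The log2 fold change in DS+Y-S against ck ran from -1.27 to 5.50 for TRINITY_DN34068_c0_g1 and from -1.07 to 4.44 for TRINITY_DN60946_c0_g2 over libraries left out, lowest without DS+Y-S replicate 3 and highest without ck replicate 3. For TRINITY_DN5935_c0_g2 it was -0.056 with the replicate block in DS+Y-L, ran there from -1.27 (without DS+Y-L replicate 3) to 0.84 over libraries left out, and in DS+Y-S from -0.72 to 0.15 (without ck replicate 1). For TRINITY_DN3224_c0_g2 it was 0.032 with all 21 libraries in DS+Y-S. Adjusted p over these settings ran from 0.0338 to 0.843 for TRINITY_DN34068_c0_g1 and from 0.0134 to 0.751 for TRINITY_DN60946_c0_g2 in DS+Y-L, and from 1.08e-11 to 1 and from 2.88e-06 to 1 in DS+Y-S (edgeR or DESeq2), each lowest in edgeR without a filter.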
